A study of Parasteatoda tepidariorum with 10 samples.

Results

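Stage-3 embryos of the house spider *Parasteatoda tepidariorum* that had developed under *fuchi* pRNAi were compared with stage-3 embryos that had developed under *Pt-hh* pRNAi, using the ATAC-seq peak lists of 4 of the 10 libraries of the series. The 4 libraries were taken by their labels: 2 from *fuchi* pRNAi and 2 from *Pt-hh* pRNAi, all from entire embryos of the Osaka isolate at 18 h after egg laying, with 40 embryos per library. In parental RNA interference (pRNAi), mated females are injected with double-stranded RNA (dsRNA), and the embryos they lay afterwards are studied. Here the females received 3 injections for *fuchi* and 4 for *Pt-hh*, and the egg sacs were produced 13 to 24 days after the first of them. Both sides of the comparison were therefore treated with dsRNA, but the number of injections went with the target and cannot be told apart from it. The source labels gave line 40 for both *fuchi* libraries and for *Pt-hh* replicate 1, and line 39 for *Pt-hh* replicate 2. The study calls the 2 libraries of a group biological replicates, but the labels do not say whether they came from different mothers, so the spread between them may be technical in part. The remaining 6 libraries came from wild-type embryos that received no dsRNA, with 2 each at stages 1, 2 and 3, and they serve below as a reference. Each stage-1 and stage-2 library was made from 200 embryos, against 40 at stage 3. The labels gave line 39 for replicate 1 of each wild-type stage, line 40 for replicate 2 of stages 2 and 3, and a source with neither line number for stage-1 replicate 2. A peak list shows where chromatin was open and holds no transcript level, so it gives no check of how far either transcript was depleted in these embryos.

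The product of *fuchi* is a GATA-like transcription factor. GATA factors carry zinc fingers that bind DNA at sites around the letters GATA, and some canonical members bind closed chromatin and open it, for which they are called pioneer factors. In many animals they act in the specification of endoderm. *Pt-hh* encodes the spider Hedgehog, a secreted ligand. Hedgehog binds the membrane receptor Patched, which releases the transducer Smoothened and changes the activity of the GLI/Ci transcription factors in the receiving cell. Hedgehog signalling patterns the body axis of the spider embryo, and stage 3 is the time at which the germ disc, the future embryo proper, takes shape. The question behind the comparison was which open regions differ between embryos after RNAi against a GATA-like transcription factor and embryos after RNAi against a signal.

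The sequence that separates the *fuchi* embryos from all others in the series is the dsRNA itself. By the methods, its template was amplified from cloned cDNA with further primers that depended on the plasmid. The pair of primers with which the *fuchi* fragment was cloned is shown here. Both are 29 bases long and are given 5′ to 3′, with the 7-base tail that adds an EcoRI site in lower case and the bases that match *fuchi* in capitals.
*fuchi* template, forward primer: ggaattcGACATGTTCTCACCTATTTCCG
*fuchi* template, reverse primer: ggaattcTGTAATTGCCTTAAGTCCGATG

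The 4 lists were unequal in length before any comparison. They held 10616 and 13677 peaks for *fuchi* replicates 1 and 2, and 23045 and 19732 peaks for *Pt-hh* replicates 1 and 2, so both *Pt-hh* lists were longer than both *fuchi* lists. The wild-type stage-3 lists, with 19812 and 12494 peaks, spanned both ranges. The number of reads behind each list is unknown, and length can follow depth as well as accessibility, so every list was shortened to its 10616 peaks of highest signal. The signal is the peak caller's area of significance along a peak, and within each shortened list it was turned into a percentile from 0 (weakest) to 100 (strongest). At this length the weakest peak kept had a signal of 200.0 in *fuchi* replicate 1, 246 in *fuchi* replicate 2, 410 in *Pt-hh* replicate 1 and 360 in *Pt-hh* replicate 2. Peaks of the *fuchi* replicate 1 list were also the narrowest, with a median width of 451 bp against 526 to 576 bp in the other 3. Lists of equal length cannot show a general gain or loss of open regions.

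Merging peaks that overlapped by at least 1 bp gave 17733 regions. Of these, 5103 (28.8%) had a peak in all 4 lists, 2703 in 3, 3521 in 2 and 6406 in 1. The lists of the *Pt-hh* replicates shared 73.4% of their peaks, more than any other pair. The *fuchi* replicates shared 66.0%, and this was no more than *fuchi* replicate 2 shared with *Pt-hh* replicate 1 (68.6%) or with *Pt-hh* replicate 2 (68.2%). *fuchi* replicate 1 shared 60.9% with *Pt-hh* replicate 1 and 66.0% with *Pt-hh* replicate 2. By shared peaks alone, then, *fuchi* replicate 1 stood apart and *fuchi* replicate 2 lay as near to the *Pt-hh* libraries as to its own replicate. The order of signal within the 5103 common regions separated the groups somewhat better: Spearman's rho was 0.77 between the *Pt-hh* replicates, 0.69 between the *fuchi* replicates and 0.52 to 0.68 across the groups, a description over regions that share library and list.

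The first comparison asked which regions had a peak in both libraries of one treatment and in neither of the other. After *Pt-hh* pRNAi there were 1007 such regions, 13.0% of the 7721 regions that both *Pt-hh* lists held and 5.68% of all regions. After *fuchi* pRNAi there were 720, which is 10.4% of the 6915 regions of both *fuchi* lists and 4.06% of all regions. The same 4 lists were then paired across the treatments. Pairing libraries of the same replicate number gave 315 and 296 regions, and the crossed pairing gave 567 and 616. The sum over both sides was 1727 for the labelled groups, 611 for the same-number pairing and 1183 for the crossed pairing. The labelled grouping thus gave the largest of the 3 sums, but with 2 libraries on each side there are only 3 pairings, and the exact permutation test cannot go below p = 0.333, which is the value found.

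**Figure D1:**
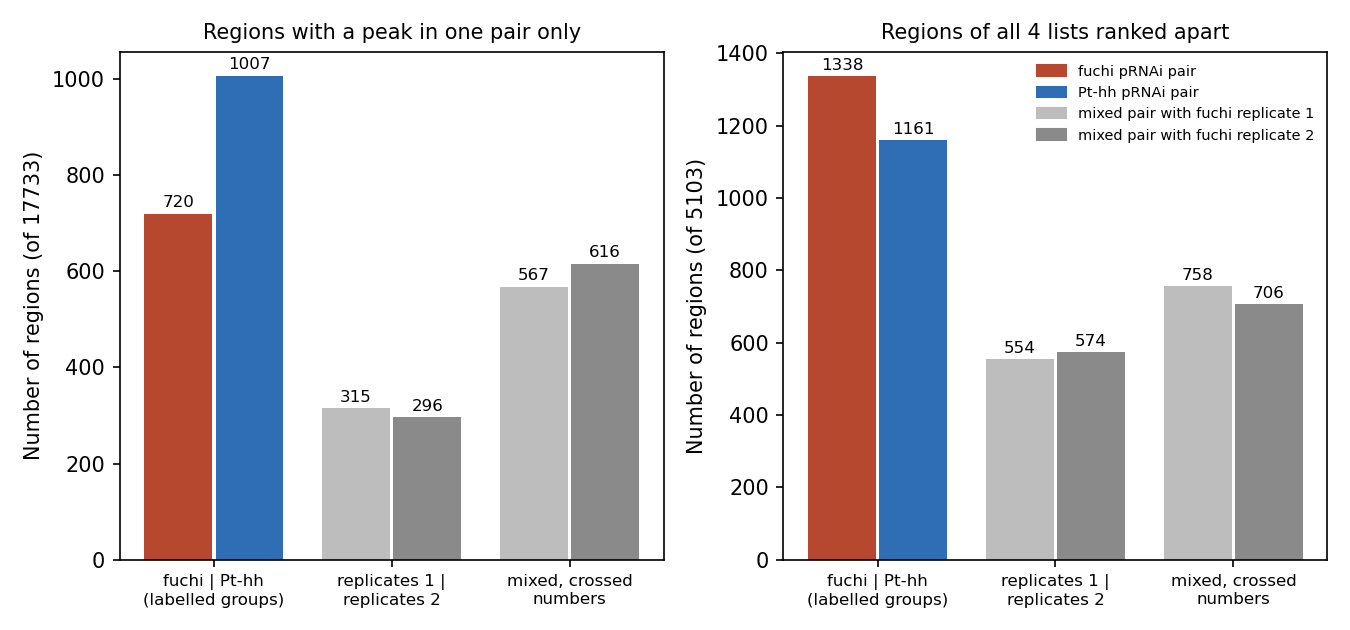
Numbers of regions for the 3 ways to pair the 4 libraries: left, regions with a peak in both libraries of a pair and in neither of the other; right, regions with a peak in all 4 lists whose percentiles were higher in both libraries of a pair. The labelled groups (red, *fuchi* pRNAi; blue, *Pt-hh* pRNAi) gave 720 and 1007 regions on the left and 1338 and 1161 on the right, above all bars of the mixed pairings (grey).

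For the *Pt-hh* pair, and for the sum of both sides, the excess over the mixed pairings was larger, in proportion, among strong peaks than among all. For the *fuchi* pair the excess over the crossed pairs was not. Of the 1007 *Pt-hh*-only regions, 263 had a mean percentile of 50 or more, and of the 720 *fuchi*-only regions 125 did. The mixed pairs gave 41 and 42 such regions for the same number and 107 and 125 for the crossed numbers. The *fuchi*-only count of strong regions was therefore no higher than that of one mixed pair, whereas the *Pt-hh*-only count was higher than all 4. Among regions with a mean percentile above 75, 43 of 2340 (1.8%) in the *Pt-hh* pair lacked a peak in both *fuchi* lists, and 10 of 2218 (0.5%) in the *fuchi* pair lacked one in both *Pt-hh* lists. At percentiles of 25 or less the shares were alike, 33.8% and 33.2%.

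**Figure D2:**
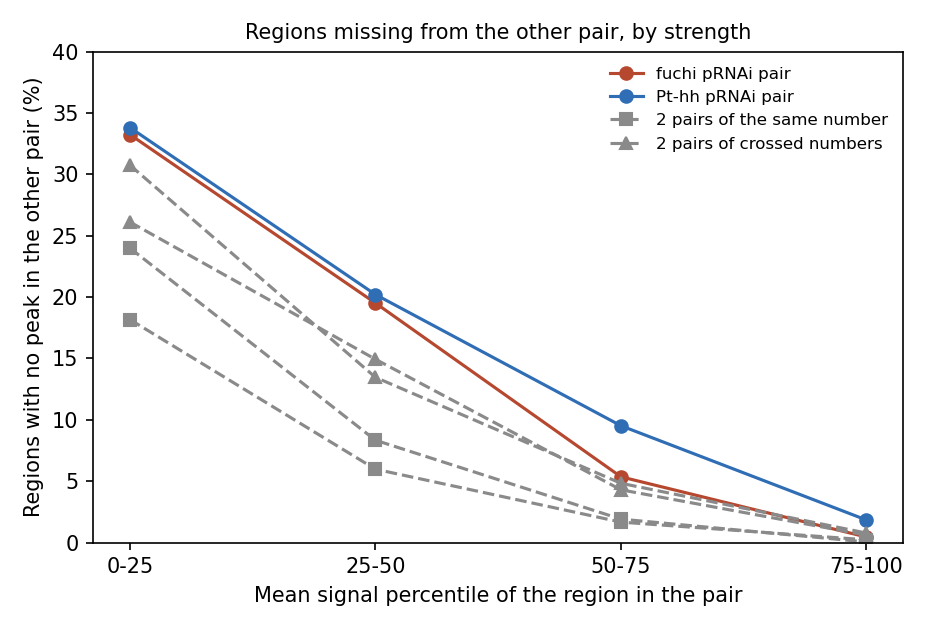
Share of the regions held by both libraries of a pair (percent, y axis) that had no peak in either library of the other pair, in 4 bins of the mean signal percentile (x axis); grey broken lines are the 4 mixed pairs. From the 50 to 75 bin the *Pt-hh* pair (9.5%) lies above the *fuchi* pair (5.4%), which runs with the crossed pairs (4.3% and 4.8%).

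The full lists were then searched at the same places, but they go on beyond the cut to unequal extents. The shortened lists kept 100% and 77.6% of the *fuchi* peaks, and 46.1% and 53.8% of the *Pt-hh* peaks. A difference between the sets in full-list shares therefore cannot be told apart from list length. Of the 1007 *Pt-hh*-only regions, 766 (76.1%) had no peak in either full *fuchi* list, and the other 241 had one in *fuchi* replicate 2 alone, since the list of *fuchi* replicate 1 was not shortened. Of the 720 *fuchi*-only regions, 576 (80.0%) had a weaker peak in the full *Pt-hh* replicate 1 list and 529 (73.5%) in that of *Pt-hh* replicate 2, with a median full-list percentile of 34.2 and 29.9. Only 72 of them (10.0%) lacked a peak in both full *Pt-hh* lists. A *fuchi*-only region was thus mostly one of lower rank after *Pt-hh* pRNAi, and the long *Pt-hh* lists bear on this count directly. The mixed sets gave similar shares. Of those without *Pt-hh* replicate 1, 77.4% and 66.1% had a peak in its full list. For *Pt-hh* replicate 2 the shares were 74.6% and 69.0%. For *fuchi* replicate 2 they were 27.6% and 27.0%, beside 23.9% of the *Pt-hh*-only regions. *Pt-hh*-only regions were wider (median 580 bp) than *fuchi*-only regions (422 bp), while regions of all 4 lists had a median of 676 bp. The widths of the mixed sets ran from 517 to 756 bp, and the narrow peaks of *fuchi* replicate 1 move with the *fuchi* value. Both sets were spread widely, over 345 and 336 scaffolds. A neighbour of the same set lay within 20 kb of 15.5% of the *Pt-hh*-only and 13.3% of the *fuchi*-only regions, against 5.4% to 18.8% in the mixed sets, so neither share lay outside their range.

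The 10 *Pt-hh*-only regions with the highest mean percentile had values of 80.6 to 95.5 in the single *Pt-hh* lists. The first, NW_018371019.1:5291783-5293645 on the assembly Ptep_2.0, had a percentile of 94.1 (signal 1643) in *Pt-hh* replicate 1 and 87.8 (signal 1113) in *Pt-hh* replicate 2, and no peak in either full *fuchi* list. It lay within 20 kb of LOC107455038, annotated as metabotropic glutamate receptor 3, a G protein-coupled receptor for glutamate. In the wild-type stage-3 lists it stood at 79.4 and 15.1.

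The second *Pt-hh*-only region, NW_018378778.1:319412-320843, lay within *g20850* (LOC107449642), an uncharacterised gene named in the study. It had percentiles of 83.3 and 95.5 in the *Pt-hh* lists and of 89.1 and 65.5 in the wild-type stage-3 lists, and no peak in either full *fuchi* list. Among the other 8, the *Pt-hh* percentiles were 80.6 to 95.3. NW_018378926.1:3406057-3406897 held 80.6 and 92.5 after *Pt-hh* pRNAi and 89.6 and 84.9 in the wild type. NW_018368093.1:67743-68454, within 20 kb of LOC107449676, held 87.8 and 88.4, with 93.5 and 78.1 in the wild type. Of the 10, 2 had a weak peak in the full list of *fuchi* replicate 2, at percentiles of 14.9 and 6.2, and none had one in *fuchi* replicate 1. Both untreated stage-3 lists held 8 of the 10, and wild-type replicate 1 alone held the other 2.

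The 10 strongest *fuchi*-only regions had percentiles of 66.4 to 97.7 in the *fuchi* lists. The first, NW_018378079.1:2314200-2315715, stood at 97.7 (signal 1521) and 96.5 (signal 1415) after *fuchi* pRNAi, and it had weaker peaks in the full *Pt-hh* lists, at 37.1 and 45.8. This region was open at every wild-type stage, with percentiles of 98.7 and 76.3 at stage 1, 95.0 and 91.8 at stage 2, and 67.9 and 96.7 at stage 3. Of the 10, 9 had a weaker peak in at least 1 full *Pt-hh* list. The exception was NW_018378148.1:582967-584408, with 80.9 and 77.8 after *fuchi* pRNAi and no peak in either full *Pt-hh* list or in the wild-type stage-3 lists, but with 71.9 and 92.2 in the stage-2 lists. NW_018375159.1:348200-349066 lay within LOC107441704, annotated as low-density lipoprotein receptor-related protein 4-like, a membrane receptor, and held 88.5 and 73.2 after *fuchi* pRNAi, with 31.3 in the full list of *Pt-hh* replicate 1.

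The second comparison took the 5103 regions with a peak in all 4 lists and asked whose rank was higher. In 1161 regions (22.8%) both *Pt-hh* percentiles were above both *fuchi* percentiles, and in 1338 (26.2%) both *fuchi* percentiles were above both *Pt-hh* percentiles. The mixed pairings gave 554 and 574 for the same number, and 758 and 706 for the crossed numbers, or 10.9% to 14.9%. Summed over both directions, 2499 regions were ranked apart by the labels, 1128 by the same number and 1464 by the crossed numbers, again with an exact permutation p of 0.333, the smallest that 3 pairings allow. With group means at least 10 percentile points apart the labelled counts were 825 and 951, against 382 to 528 in the mixed pairs, and at 30 points they were 263 and 355, against 91 to 168. Larger separations thus favoured the labelled grouping as well.

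**Figure D3:**
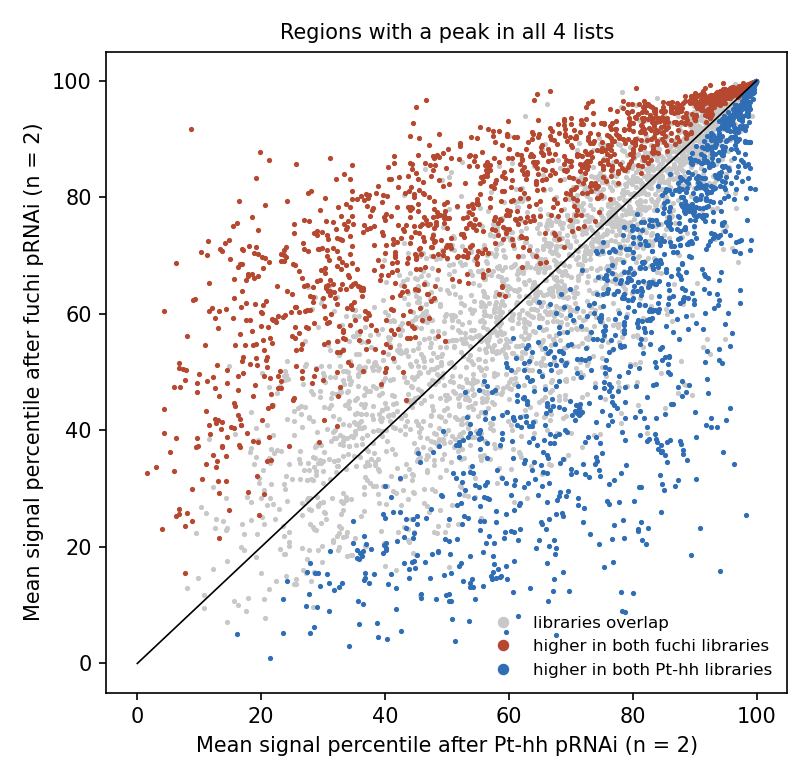
Mean signal percentile over the 2 *Pt-hh* libraries (x axis) and over the 2 *fuchi* libraries (y axis) for each of the 5103 regions with a peak in all 4 lists; coloured points are the 1338 regions (red) and 1161 regions (blue) whose groups did not overlap, and the line marks equal values. The coloured points are spread over the whole range of ranks, with the farthest ones far from the line on both sides.

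Among the regions ranked higher after *Pt-hh* pRNAi, the median percentiles were 83.3 and 82.3 in the *Pt-hh* lists and 58.5 and 63.9 in the *fuchi* lists. The widest gap was at NW_018377809.1:5546769-5549668, which held 97.9 and 90.2 after *Pt-hh* pRNAi and 6.3 and 25.5 after *fuchi* pRNAi, with 57.2 and 97.1 in the wild type at stage 3. The next, NW_018374918.1:477601-480924, held 98.3 in both *Pt-hh* lists and 0.1 and 51.0 in the *fuchi* lists, so the *fuchi* replicates themselves were far apart there. NW_018379238.1:79869-82116, within 20 kb of LOC107456862, held 83.1 and 95.6 after *Pt-hh* pRNAi and 5.6 and 31.5 after *fuchi* pRNAi. The differences of the group means over the 5 regions of the widest gap ran from -69.3 to -78.1 percentile points (*fuchi* minus *Pt-hh*).

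Among the regions ranked higher after *fuchi* pRNAi, the median percentiles were 83.8 and 80.5 in the *fuchi* lists and 58.1 and 60.7 in the *Pt-hh* lists. NW_018378030.1:411841-412937 had the widest gap, 83.1 points, with 92.4 and 91.0 after *fuchi* pRNAi and 6.3 and 10.9 after *Pt-hh* pRNAi. It stood at 93.7 in stage-1 replicate 1 and at 54.4 and 93.6 in the stage-2 lists, and at stage 3 at 85.1 in replicate 1 with no peak in replicate 2. NW_018376324.1:619015-619870 held 87.0 and 88.4 after *fuchi* pRNAi and 11.5 and 28.2 after *Pt-hh* pRNAi. Its percentile was 94.0 and 95.5 at stage 1 and 70.5 and 65.7 at stage 3 of the wild type. The 5 regions with the widest gap in this direction each had peaks in 3 or 4 of the 4 lists of stages 1 and 2.

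The wild type at stage 3 was not used to choose either set. Its lists, cut to the same length, both held 330 (32.8%) of the *Pt-hh*-only regions, while 434 were in 1 of them and 243 (24.1%) in neither. Of the *fuchi*-only regions, 79 (11.0%) were in both, 325 in 1 and 316 (43.9%) in neither. Of the mixed sets, 15.9% to 25.5% were in both. The wild-type libraries did not agree on this contrast. Wild-type replicate 1, from line 39, held a peak in 63.9% of the *Pt-hh*-only and 21.8% of the *fuchi*-only regions, whereas wild-type replicate 2, from line 40, held one in 44.8% and 45.3%. The mean over both libraries was 54.3% ± 13.5 for *Pt-hh*-only and 33.5% ± 16.6 for *fuchi*-only regions (SD, n = 2), a difference of the size of the spread between the wild-type libraries, and without wild-type replicate 1 the shares differed by under a point. The contrast in wild-type replicate 2 also turned with the pRNAi libraries used: its share of *Pt-hh*-only and *fuchi*-only regions was 48.6% and 33.5% without *fuchi* replicate 1, 57.5% and 20.2% without *fuchi* replicate 2, 29.6% and 48.7% without *Pt-hh* replicate 1, and 30.3% and 49.0% without *Pt-hh* replicate 2. In wild-type replicate 1 the *Pt-hh*-only share stayed the higher one in all 4 cases, by 68.0% to 16.2%, 69.1% to 15.4%, 46.6% to 30.5% and 40.4% to 37.9%. Of all 5103 common regions, 83.8% were in both wild-type lists.

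Ranks in the wild type gave a like picture. In the 1036 regions ranked higher after *Pt-hh* pRNAi that both untreated stage-3 lists also held, the median percentile was 82.1 in wild-type replicate 1 and 77.3 in replicate 2, against 85.3 and 84.4 after *Pt-hh* pRNAi and 63.4 and 68.2 after *fuchi* pRNAi. In the 1102 regions ranked higher after *fuchi* pRNAi it was 67.1 in wild-type replicate 1, near the *Pt-hh* values of 65.8 and 68.6, and 79.5 in replicate 2, between these and the *fuchi* values of 87.0 and 84.4. Wild-type replicate 1 was nearer to the *Pt-hh* mean in 76.1% of these regions and wild-type replicate 2 in 36.5%. In the regions ranked higher after *Pt-hh* pRNAi the shares were 70.0% and 51.9%, and over all 4277 common regions held by both wild-type lists they were already 64.3% and 48.1%, so wild-type replicate 1 lay nearer to the *Pt-hh* libraries in general.

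The clearest difference between the sets was in the earlier wild-type stages. At stage 1 (9 h after egg laying), 47.5% and 23.3% of the *fuchi*-only regions had a peak in replicates 1 and 2, against 13.5% and 7.1% of the *Pt-hh*-only regions. At stage 2 (12 h), it was 31.8% and 58.3% of the *fuchi*-only regions and 19.4% and 9.0% of the *Pt-hh*-only regions. The *fuchi*-only share was thus higher in 4 of 4 earlier libraries, by a mean of 28.0 ± 17.0 percentage points (SD over these wild-type libraries, n = 4). That SD is a spread between wild-type lists of 2 stages and not between pRNAi libraries, since the region sets were the same throughout. The mixed sets had 15.7% to 29.6%, 10.8% to 14.9%, 18.7% to 40.6% and 17.0% to 27.2% in these 4 libraries in the same order, so the *fuchi*-only share lay above all of them in 3 libraries and the *Pt-hh*-only share below all of them in 3. In stage-2 replicate 1 both shares lay within the range of the mixed sets.

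**Figure D4:**
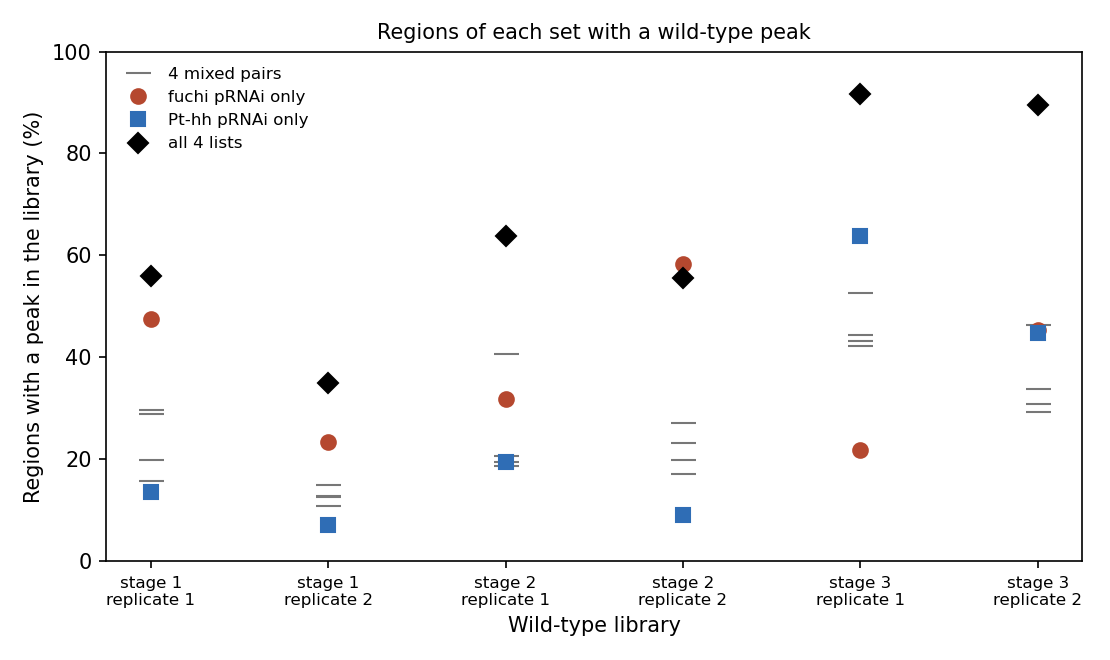
Share of regions with a peak (percent, y axis) in each of the 6 wild-type libraries (x axis), each cut to 10616 peaks, for regions of *fuchi* pRNAi only (red circles, 720), *Pt-hh* pRNAi only (blue squares, 1007), all 4 lists (black diamonds, 5103) and the 4 sets of the mixed pairings (grey bars). The red circles lie above the blue squares at stages 1 and 2, and at stage 3 the order is reversed in replicate 1 (21.8% and 63.9%) and the values nearly meet in replicate 2 (45.3% and 44.8%).

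Taking the stages as patterns, 187 *Pt-hh*-only regions (18.6%) were in both untreated stage-3 lists and in none of the 4 earlier lists, against 14 *fuchi*-only regions (1.9%) and 5.1% to 12.8% in the mixed sets. The reverse pattern, a peak in both lists of stage 1 or both of stage 2 and in neither wild-type stage-3 list, was found for 75 *fuchi*-only regions (10.4%) and 4 *Pt-hh*-only regions (0.4%), against 1.8% to 4.4% in the mixed sets. Both lists of stage 2 held 157 of the 720 *fuchi*-only regions (21.8%) and 23 of the 1007 *Pt-hh*-only regions (2.3%), beside 5.0% to 12.5% of the mixed sets and 17.4% of all regions. No peak in any of the 6 wild-type lists was found for 172 (17.1%) of the *Pt-hh*-only and 86 (11.9%) of the *fuchi*-only regions, beside 13.1% to 25.0% of the mixed sets and 19.8% of all regions.

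Regions common to all 4 lists showed the same direction. Of those ranked higher after *fuchi* pRNAi, 76.3% and 55.9% had a peak in the stage-1 lists and 73.0% and 77.1% in the stage-2 lists. Of those ranked higher after *Pt-hh* pRNAi the shares were 44.9%, 23.8%, 60.5% and 40.7%, and over all 5103 they were 55.9%, 34.9%, 63.9% and 55.6%. Regions ranked apart by the mixed pairings had 44.9% to 56.6%, 25.6% to 33.9%, 53.8% to 69.1% and 48.0% to 53.6%. The *fuchi* side lay above these ranges in every earlier library. The *Pt-hh* side lay within the range in stage-2 replicate 1, at its lower end in stage-1 replicate 1, and below it in both replicates 2. Peaks in all 6 wild-type lists were found for 561 of the 1338 regions (41.9%) ranked higher after *fuchi* pRNAi and for 113 of the 1161 (9.7%) ranked higher after *Pt-hh* pRNAi. The share was 20.4% over all 5103 and 10.9% to 18.3% in the regions ranked apart by the mixed pairings.

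Library features moved with this result. The untreated stage-3 libraries, which differ in line and in list length, showed the same direction between themselves: regions with a peak in wild-type replicate 2 (line 40, 12494 peaks) and not in replicate 1 had a stage-2 replicate 2 peak in 31.8% of cases, and regions with the opposite pattern in 15.5%. In stage-1 replicate 1 the values were 26.6% and 18.0%, and in stage-2 replicate 1 they were equal within a point, at 22.6% and 22.7%. Within line 40, regions with a peak in *fuchi* replicate 1 and not in *Pt-hh* replicate 1 had an earlier peak in 32.6%, 16.3%, 28.6% and 33.8% of cases, and the reverse set in 15.4%, 9.3%, 18.2% and 14.1%. With *fuchi* replicate 2 in place of replicate 1 the values were 28.9%, 15.7%, 24.7% and 33.4% against 16.7%, 8.9%, 18.9% and 14.1%. Replicates of one treatment differed from each other as well. Regions in *fuchi* replicate 1 and not in *fuchi* replicate 2, both of line 40, had an earlier peak in 27.2%, 13.5%, 26.4% and 26.0% of cases, and the reverse set in 18.7%, 11.6%, 19.6% and 20.8%. Regions in *Pt-hh* replicate 2 and not in *Pt-hh* replicate 1 had one in 24.7%, 11.2%, 29.9% and 20.0%, and the reverse set in 18.7%, 11.2%, 16.9% and 19.1%. In these pairs, as in the pairs above, the shares were higher on the side of the shorter full list or equal within a point. This did not hold throughout between *fuchi* replicate 2 and *Pt-hh* replicate 2. There the stage-2 replicate 1 share was 21.6% on the *fuchi* side, which has the shorter list, and 26.8% on the *Pt-hh* side. In the remaining earlier libraries the *fuchi* side of that pair was higher. Without *fuchi* replicate 1 the mean difference fell to 6.05 percentage points, and without *fuchi* replicate 2 to 9.16 points. In stage-2 replicate 1 it then turned, with 20.1% of the *fuchi*-only and 26.8% of the *Pt-hh*-only regions without *fuchi* replicate 1, and 23.1% and 24.0% without replicate 2. The part of list length and of line in these shares was not tested.

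Line and treatment overlapped in part. With the 3 libraries of line 40 alone, 1417 regions were in both *fuchi* lists and not in *Pt-hh* replicate 1, and 2492 were in *Pt-hh* replicate 1 and in neither *fuchi* list, a sum of 3909. Setting *fuchi* replicate 1 against the other 2 libraries gave a larger sum, 4356, and setting *fuchi* replicate 2 against the others gave 2749. Within the line, then, the library that stood most apart was *fuchi* replicate 1 and not the *Pt-hh* library.

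Gene positions on Ptep_2.0 could be placed for 284 genes, from the study's list of regions that differed between *fuchi* pRNAi and wild-type embryos. The genes entered that list through the same *fuchi* libraries, so the direction at these loci is no independent evidence, and other genes may lie nearer to a region. Of the 22 genes taken from the study's text 7 were placed, of 8 GATA family genes 1, and from the hedgehog pathway *Pt-hh* and a patched-like gene. The *fuchi* gene itself was not among those placed. These 8 genes had 50 regions within the gene or within 20 kb of it, of which 24 were in all 4 lists, 5 were *Pt-hh*-only (10.0%) and 1 was *fuchi*-only (2.0%). Over all regions the *Pt-hh*-only and *fuchi*-only shares were 5.68% and 4.06%, and counts of 5 and 1 are small. Of the 24, 8 (33.3%) were ranked higher after *Pt-hh* pRNAi and 3 (12.5%) after *fuchi* pRNAi, beside 22.8% and 26.2% of all common regions.

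**Figure D5:**
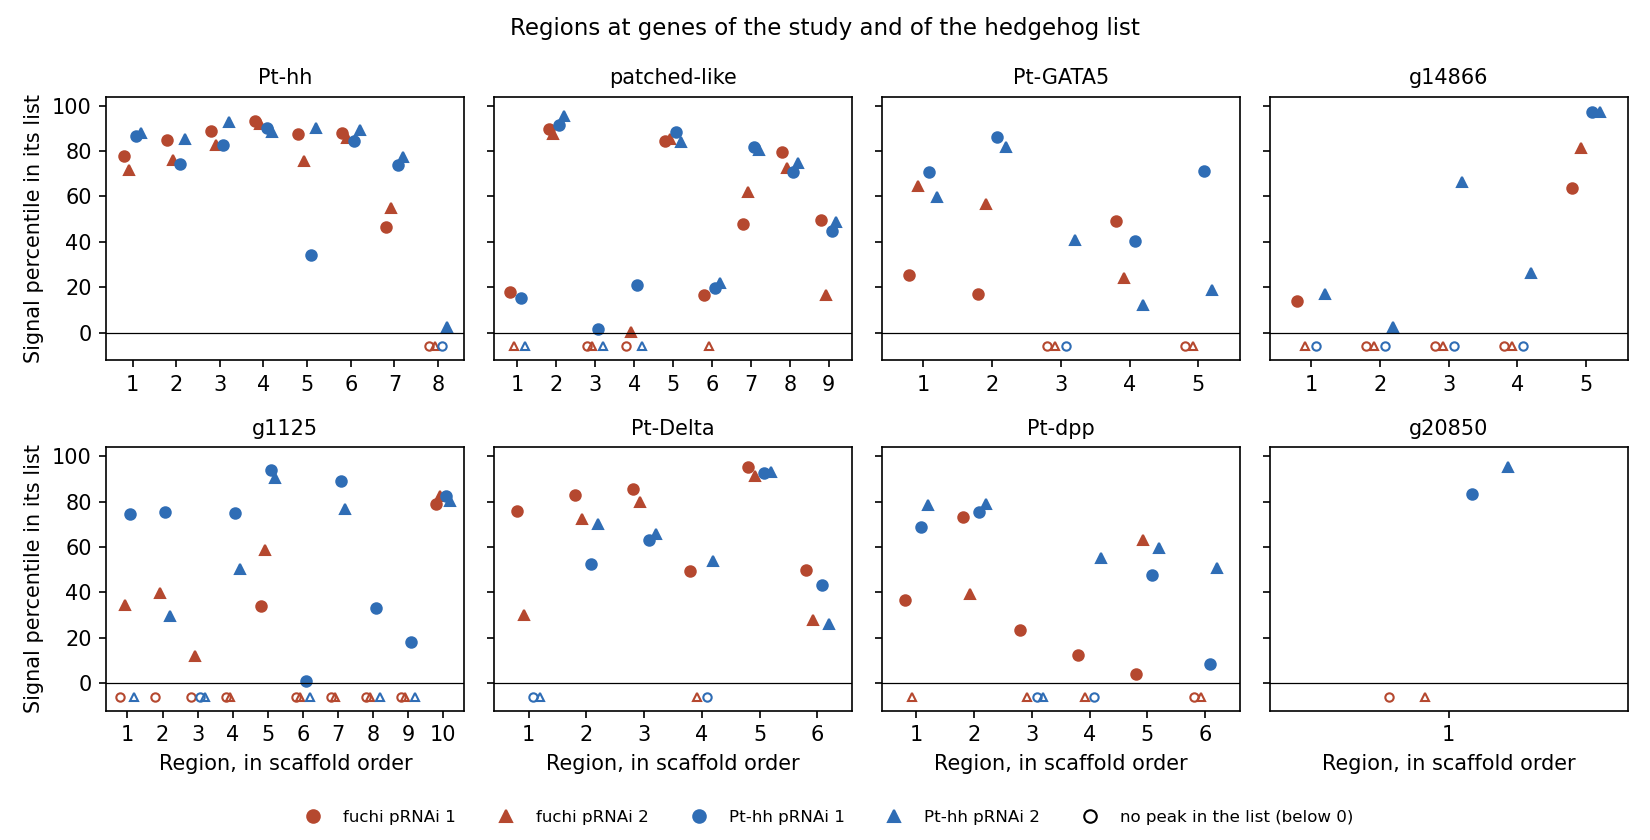
Signal percentile in each shortened list (y axis) of the regions at 8 genes, numbered in scaffold order (x axis); red is *fuchi* pRNAi, blue is *Pt-hh* pRNAi, circles are replicate 1, triangles replicate 2, and open symbols below 0 mark a library with no peak. At *Pt-hh*, 7 of 8 regions had a peak in all 4 lists, and at *g1125* 2 of 10 regions were *Pt-hh*-only.

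The *Pt-hh* locus itself, which encodes the ligand, was open in both treatments. Of its 8 regions 7 had a peak in all 4 lists, and none was *Pt-hh*-only or *fuchi*-only. In scaffold order the first, NW_018380730.1:69425-70094 within the gene, held 77.8 and 71.4 after *fuchi* pRNAi and 86.4 and 87.8 after *Pt-hh* pRNAi, with 93.7 and 89.8 in the wild type at stage 3. The seventh, NW_018380730.1:124793-125204 outside the gene, held 46.6 and 55.0 in the *fuchi* lists, 73.7 and 77.2 in the *Pt-hh* lists, and 77.2 and 83.1 in the wild type. At these regions the groups did not overlap and both wild-type values were on the *Pt-hh* side. At the fourth, NW_018380730.1:87156-87653, the *fuchi* values of 93.2 and 91.9 lay above the *Pt-hh* values of 89.9 and 88.5 by a few points only. The fifth separated the *Pt-hh* replicates (34.4 and 89.9) and not the groups.

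At LOC107440240, annotated as protein patched-like after the Hedgehog receptor Patched, 5 of 9 regions were in all 4 lists and 2 of them were ranked higher after *Pt-hh* pRNAi. NW_018382990.1:1238763-1239579 held 47.7 and 61.7 after *fuchi* pRNAi and 81.9 and 80.4 after *Pt-hh* pRNAi, with 84.6 and 74.0 in the wild type. NW_018382990.1:1215781-1216948 held 89.8 and 87.6 against 91.4 and 95.2, so the groups lay close together there. The other 3 common regions overlapped between the groups.

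*Pt-GATA5* (LOC107456131), a canonical member of the GATA family, had 5 regions. NW_018368052.1:1355575-1356092 held 17.0 and 56.5 after *fuchi* pRNAi and 86.2 and 81.9 after *Pt-hh* pRNAi, with 71.7 and 79.3 in the wild type and no peak in the 4 earlier lists. NW_018368052.1:1389971-1390620 was *Pt-hh*-only, with 71.2 in replicate 1 and 18.9 in replicate 2, no peak in either full *fuchi* list, and a wild-type stage-3 value of 23.7 in replicate 2 alone. The wild type therefore matched the *Pt-hh* libraries at the first of these regions and only weakly at the second.

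The gene *g14866* (LOC107440842) is annotated as ush-like, after the *Drosophila* cofactor U-shaped that binds GATA factors. Its strongest region, NW_018369952.1:430614-431576, held 63.7 and 81.3 after *fuchi* pRNAi and 97.3 and 97.1 after *Pt-hh* pRNAi. The wild type held 98.0 and 93.7 at stage 3, and 90.1 and 90.8 at stage 1 and 97.9 and 86.7 at stage 2, so the *fuchi* values were the 2 lowest of the 10 libraries. Its other 4 regions had peaks in 1 or 2 of the 4 lists, always with *Pt-hh* replicate 2 among them.

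At *g1125* (LOC107445669), which encodes an uncharacterised protein, 10 regions were found within the gene or within 20 kb. NW_018379852.1:759265-760090, the one that reached into the gene, was *Pt-hh*-only with 89.0 and 76.6, had no peak in either full *fuchi* list, and stood at 65.6 and 70.1 in the wild type at stage 3 with no peak at stages 1 and 2. NW_018379852.1:753795-754701 was *Pt-hh*-only as well, at 74.9 and 50.5, with a weak peak in the full list of *fuchi* replicate 2. Between them lay NW_018379852.1:754827-756360, which held 33.9 and 58.9 after *fuchi* pRNAi and 94.0 and 90.5 after *Pt-hh* pRNAi, with 72.5 and 82.3 in the wild type. Farther along, NW_018379852.1:770923-771517, did not separate the groups, with 79.1, 82.6, 82.3 and 80.1 in *fuchi* replicates 1 and 2 and *Pt-hh* replicates 1 and 2. Neighbouring regions of one locus thus differed in whether they separated the treatments.

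*Pt-Delta* (LOC107456525), which encodes a ligand of the Notch receptor, went the other way. NW_018378926.1:3520023-3520626 held 85.7 and 79.8 after *fuchi* pRNAi and 63.1 and 65.8 after *Pt-hh* pRNAi, with 63.3 and 77.7 in the wild type, and NW_018378926.1:3518106-3518707 held 83.0 and 72.2 against 52.6 and 70.2. The region NW_018378926.1:3496042-3496549 was *fuchi*-only in the shortened lists, at 75.77 and 30.01, and had peaks in both full *Pt-hh* lists. The strongest region of the gene did not separate the groups, at 95.0 and 91.4 against 92.6 and 93.1.

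*Pt-dpp* (LOC107442925), which encodes a BMP ligand, had 6 regions. NW_018373717.1:4063243-4063821 within the gene was *Pt-hh*-only, but weakly so, at 8.6 and 50.6. It stood at 91.9 in wild-type stage-3 replicate 1 and 88.6 in stage-1 replicate 1, with no peak in stage-3 replicate 2. The neighbouring NW_018373717.1:4062492-4062968, in all 4 lists, had the same values in these wild-type libraries. They may therefore come from a single wild-type peak in each library that meets both regions. NW_018373717.1:3991333-3992020 was ranked higher after *Pt-hh* pRNAi, at 75.5 and 78.9 against 73.2 and 39.4, where the *fuchi* replicates differed from each other by more than the groups did.

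The 3 scaffolds with the most *Pt-hh*-only regions were NW_018371019.1, NW_018370506.1 and NW_018376213.1. They were chosen by that count, so a high *Pt-hh*-only share among them is no independent result. Their ranks come from the same libraries. NW_018371019.1 had 25 *Pt-hh*-only and 10 *fuchi*-only regions of 259, or 9.65% and 3.86%, beside 5.68% and 4.06% over all scaffolds, and of its 65 common regions 24 were ranked higher after *Pt-hh* pRNAi and 6 higher in the *fuchi* lists. NW_018376213.1 had 17 and 3 of 153, or 11.1% and 1.96%, and its common regions were ranked higher after *Pt-hh* pRNAi in 20 cases and under *fuchi* pRNAi in 6, of 48. NW_018370506.1 had 22 and 14 of 440, or 5.0% and 3.18%, near the shares over all scaffolds, and its 121 common regions leaned the other way, with 23 ranked higher after *Pt-hh* pRNAi and 34 higher in the *fuchi* lists.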

How the data were processed

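The peak lists of 4 stage-3 pRNAi and 6 wild-type ATAC-seq libraries were used as deposited. Per the labels and methods, the authors used Trim Galore! for trimming and Bowtie2 2.2.5 for alignment to Ptep_2.0, filtered by mapping quality, removed duplicates with Picard and called peaks in each library separately with Genrich 0.6 in its ATAC-seq mode, without a control library. In the deposited lists the signal is the authors' area of significance along a peak, with a minimum of 200.0. Their deposited −log10 p-value is unadjusted and taken at the summit, and another deposited column gives the distance from peak start to summit. None of these values is scaled between libraries, so they were used for ranks within a list only. No read totals were used: depth is unknown, and no interval is given.

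Each list was cut to 10616 peaks by signal, the length of the shortest, and overlapping peaks (1 bp or more) of the 4 lists were merged with Python 3.11.15 and pandas. The percentile of a region is that of its strongest peak in a list. A longer merged region meets a peak of another list more easily. Presence and rank were compared between labelled groups and between the 2 pairings that mix them, and wild-type peaks were searched for in the merged regions. With 2 libraries a side no test across regions was made. The calculation was tested on simulated lists whose replicates were nearly alike. This checks the code and gives no rate of false calls for the real lists.

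Named are the 10 regions of highest mean percentile with peaks in one group only, on each side, the 5 of largest rank difference in each direction among those that did not overlap, the regions at placed genes of the study and the 3 scaffolds with the most *Pt-hh*-only regions. Genes of the hedgehog list were added to the named loci after their values were seen. Gene positions came from the study's supplementary region list, whose annotation columns are shifted against its regions in part of the rows; each of 313 annotations was matched back to 1 region by its centre. Of the 284 placed genes, 232 had their ID in the RefSeq table. No statistic of that list was used. The groups of samples came from the labels, but the comparison, sets and gene lists were chosen with earlier results of these data known. Motifs, region sequences and exon or intron annotation were not analysed here.

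Other settings tried were the full lists, lists of 5308 peaks, ranks by p-value, 50% overlap, 200 bp summit windows, absence from full lists, a margin of 10 percentile points, each replicate left out and a replicate block.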

Additional observations from a re-analysis of the deposited data

How the results depend on the processing

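The labelled groups gave a larger sum than both mixed pairings under each setting that kept the 4 libraries and was run on all 3 pairings (all peaks, 5308 peaks, p-value ranks, 50% overlap, 200 bp windows). With all deposited peaks, of which the *Pt-hh* lists hold more, 4211 regions were *Pt-hh*-only and 138 *fuchi*-only, and 3226 and 697 common regions were ranked higher after *Pt-hh* and *fuchi* pRNAi. With lists of 5308 peaks these counts were 536, 444, 616 and 690. With absence taken from the full lists 72 *fuchi*-only regions remained, and 766 *Pt-hh*-only regions. The unequal lengths of the full lists bear on both counts. Leaving out 1 library removes a condition and so raises the counts: without each replicate in turn they ran from 1568 to 2492 (*Pt-hh*-only), 1121 to 2840 (*fuchi*-only), 1842 to 2226 (ranked higher after *Pt-hh* pRNAi) and 2179 to 2308 (after *fuchi* pRNAi). The mean wild-type stage-3 share of *Pt-hh*-only regions was 71.4% with all wild-type peaks and 18.9% with 5308, and that of *fuchi*-only regions 58.5% and 7.8%, which follows from the list lengths. Without wild-type replicates 1 and 2 in turn it was 44.8% and 63.9% for *Pt-hh*-only and 45.3% and 21.8% for *fuchi*-only regions.

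The earlier-stage difference (28.0 points) kept its direction in all alternatives run and ranged from 6.05 points without *fuchi* replicate 1 to 44.1 points among regions of percentile 50 or more; without each earlier library it was 20.9 to 33.2 points. Without *fuchi* replicate 2 it was 9.16 points. These alternatives, and absence from the full lists for the wild-type shares, were chosen after seeing the data. The labels do not say that a replicate number marks a shared animal, batch or day, and the replicate differences of the groups correlated at -0.13 over 5103 regions. With a replicate block, where *fuchi* and *Pt-hh* differ the same way within both numbers, 1471 and 1622 common regions were ranked higher after *Pt-hh* and *fuchi* pRNAi, and the presence counts stayed at 1007 and 720 by construction. Crossing the numbers gave 1527 and 1729. The GATA motif shares and the annotation of regions were not run, since no genome of the files' build was used here. Depth per library is unknown and limits any reading of absent peaks.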

Other observations

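The wild-type patterns were also counted among the stronger regions of each set. Of the 263 *Pt-hh*-only regions with a mean percentile of 50 or more, 138 (52.5%) were in both untreated stage-3 lists and 29 (11.0%) in neither, and 68 (25.9%) were in both of these and in no earlier list. Of the 125 *fuchi*-only regions of that strength, 25 (20.0%) were in both untreated stage-3 lists and 2 (1.6%) had the late pattern, while 53 (42.4%) were in both stage-2 lists. The mixed sets were not counted at this strength, so a change of these shares with strength cannot be ascribed to the sets.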
